A study of Mus musculus with 8 samples.

Results

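The resistin-like molecules are small secreted, cysteine-rich proteins, and the mouse genes Retnlb, Retnla and Retnlg encode RELMβ, RELMα and RELMγ. These 3 genes were taken by name from the 23282 lines of a mouse intestinal count table, selected on their levels in all 8 libraries, so their levels and fold changes are given as a description. Where a fit over all genes called a member, that is stated as a count and supports nothing, since the same values chose the member. All 3 passed the filter on low counts, as did 14567 lines in all. Intestinal RNA came from wild-type C57BL/6 mice in 4 groups of 2 libraries. ExDSS mice received 1 mg of bovine colostrum exosomes by gavage each day for 3 weeks and then 3% dextran sodium sulfate (DSS), which injures the gut epithelium, in drinking water for 6 days. PC mice received buffer and then the same DSS, Ex mice received exosomes and no DSS, and NC mice received buffer and no DSS. Exosomes are small membrane vesicles, here from the first milk of cows. The sources used here give neither the gut region nor the age of the mice. They also do not say that paired libraries of a group are separate animals, so p-values measure the spread between libraries, which may be technical.

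RELMβ is a product of intestinal goblet cells, the mucus-secreting cells of the epithelium, which release it into the lumen, where it damages the membranes of Gram-negative bacteria. RELMα is known in the mouse as a product of macrophages activated by interleukin-4 or interleukin-13 through the factor STAT6, and it is also made in white fat. RELMγ is known from mouse bone marrow and neutrophils. Resistin itself, encoded by Retn on chromosome 8, is a fat cell product in the mouse and is no member of the cluster.

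The 3 genes lie side by side on chromosome 16, all on the + strand, in the order Retnlb (48816856 to 48818892), Retnla (48842552 to 48844461) and Retnlg (48872608 to 48874498). The positions are those of the table, which match GRCm38. They span 57.6 kb, with gaps of 23659 and 28146 bases. Each GENCODE transcript has 4 exons, and exon 4 codes for the carboxyl end of the protein in 125 bases of the same length in all 3 genes. These stretches are shown because they carry the family's cysteine pattern and because libraries of this kind are read near the 3′ end of the RNA. They lie at chr16:48818628-48818752, chr16:48844174-48844298 and chr16:48874217-48874341 of GRCm38, and capitals mark the cysteine codons in frame.
Retnlb: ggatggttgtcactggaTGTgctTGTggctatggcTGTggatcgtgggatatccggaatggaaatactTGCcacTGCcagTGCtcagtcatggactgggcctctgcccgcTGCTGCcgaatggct
Retnla: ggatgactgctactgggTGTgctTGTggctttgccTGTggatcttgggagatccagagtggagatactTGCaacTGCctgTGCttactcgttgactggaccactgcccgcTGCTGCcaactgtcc
Retnlg: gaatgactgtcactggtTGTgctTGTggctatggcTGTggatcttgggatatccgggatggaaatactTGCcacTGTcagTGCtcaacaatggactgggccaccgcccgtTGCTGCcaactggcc
Each stretch held 8 cysteine codons at the same places. Retnlb and Retnlg were identical at 109 of the 125 bases (87.2%), and each was identical to Retnla at 80.8% of them. The longest run shared exactly between whole transcripts was 49 bases for Retnla and Retnlg, 26 for Retnlb and Retnlg and 15 for Retnlb and Retnla. A read that lay within such a run could not be told apart between the genes. The counts nevertheless separated them: Ex 1 had 619 counts of Retnla beside 22 of Retnlg, and NC 1 had 88 of Retnla beside 4870 of Retnlg.

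Promoter sequences were found in the RefSeq table (GRCm38.p6) for 2 of the 3 genes, Retnla and Retnlg. They are shown up to the base before the earliest annotated start because the genes are neighbours with alike promoters and unlike levels. STAT6 and C/EBP factors are known to act on the mouse Retnla promoter. Capitals mark matches, on either strand, to the STAT6 letters, TTC and GAA with any 4 bases between them, or the C/EBP letters TTNNGNAA. The sequences are those of chr16:48842359-48842550 and chr16:48872358-48872607, + strand.
Retnla: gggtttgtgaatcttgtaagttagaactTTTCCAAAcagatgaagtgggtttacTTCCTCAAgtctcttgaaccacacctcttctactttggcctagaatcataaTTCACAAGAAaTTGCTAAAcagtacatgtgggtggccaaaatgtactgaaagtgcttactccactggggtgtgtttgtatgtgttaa
Retnlg: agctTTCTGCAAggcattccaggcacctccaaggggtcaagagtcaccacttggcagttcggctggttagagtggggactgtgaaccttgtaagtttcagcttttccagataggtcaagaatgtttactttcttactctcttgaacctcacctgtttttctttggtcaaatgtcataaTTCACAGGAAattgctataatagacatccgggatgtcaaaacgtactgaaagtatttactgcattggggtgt
In a local alignment of the full 300-base windows, 178 of 228 columns (78.1%) were identical. Each window held 1 match to the STAT6 letters, which 6.95% of 32851 promoters held. Retnla had 3 C/EBP matches and Retnlg 1, and 40.7% of promoters held at least 1. Neither window matched TTCNNNGAA, a pattern of other STAT factors found in 8.3% of promoters, or TTTATNG, a pattern of the intestinal CDX factors found in 10.9%. No match overlapped another. A match describes the letters in the window and is not a binding site.

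Several libraries stand apart, and some go against their labels. The neutrophil gene S100a9 had 1425 and 1031 normalised CPM (counts scaled to a common library size) in the libraries labelled ExDSS, 0.509 and 0.628 in PC, 3.17 and 5.96 in Ex, and 1142 and 1126 in NC. Neutrophil transcripts were thus abundant in a group labelled as free of DSS and nearly absent in the group labelled DSS alone. All directions below follow the labels. Total counts ranged from 8813622 to 12308537 in 7 libraries and came to 1163147 in Ex 2, where the ribosomal precursor Rn45s held 53.5% of counts. The 9 epithelial markers summed to 59.6 CPM in Ex 2, against 3931 to 6908 CPM in the other 7 libraries, and the goblet cell, macrophage, fat cell and neutrophil lists were also at their lowest there. Pancreatic enzyme genes held 20.03% of the counts of ExDSS 1 and 8.98% of those of NC 2, and at most 0.0617% elsewhere. Genes detected numbered 9825 and 11874 in ExDSS, 16787 and 16790 in PC, 16374 and 8760 in Ex, and 16123 and 12683 in NC. Rn45s held 0.874 and 0.665% of counts in ExDSS, 7.35 and 11.1% in PC, 13.1% in Ex 1, and 5.12 and 0.407% in NC. ExDSS 1, ExDSS 2 and NC 2 were thus low in both. Differences of ExDSS from other groups cannot be told apart from this split, nor can counts of 0 in those libraries.

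**Figure D1:**
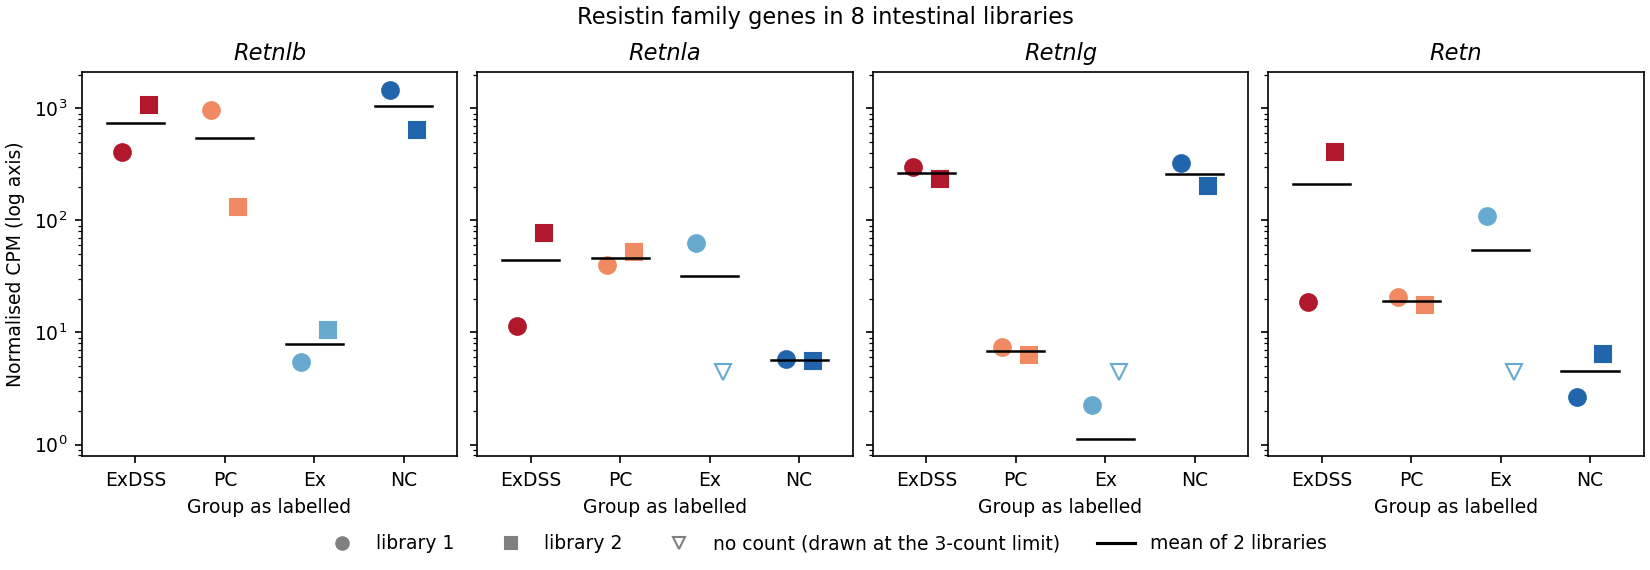
Normalised CPM (log axis) of Retnlb, Retnla, Retnlg and Retn in each of the 8 libraries, by group as labelled; points are libraries, lines are means of 2 libraries, with a count of 0 entering as 0, and open triangles are libraries with no count, drawn at the level that 3 counts would give. Retnlg is above 200 CPM in all ExDSS and NC libraries and under 10 CPM in all PC and Ex libraries, Retnlb is near 10 CPM or below only in Ex, and Retnla is lowest in NC among libraries with a count.

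Retnlb was abundant in all groups but Ex. ExDSS 1 and ExDSS 2 had 407 and 1068 CPM, PC 1 and PC 2 had 959 and 131 CPM, Ex 1 and Ex 2 had 5.41 and 10.4 CPM, and NC 1 and NC 2 had 1468 and 644 CPM. The 2 Ex libraries lay below the other 6, while the ExDSS, PC and NC values overlapped. Group means were 738 ± 468 CPM in ExDSS, 545 ± 585 in PC, 7.92 ± 3.54 in Ex and 1056 ± 583 in NC (SD, n = 2 each). In the order NC, ExDSS, PC, Ex, no neighbouring pair among the first 3 differed beyond its spread. The value of Ex 2 rests on 7 counts, and that of Ex 1 on 53.

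The goblet cell list sets Retnlb beside other products of its cell type. Its 13 measured genes summed to 18485 and 53384 CPM in ExDSS, 12868 and 17699 in PC, 12683 and 228 in Ex, and 13255 and 24457 in NC. Ex 1 therefore had a goblet cell sum close to that of PC 1 with a Retnlb level of 5.41 CPM, against 959 CPM in PC 1. None of the 13 genes was at 0 in Ex 1, and 4 were at 0 in Ex 2 (Sytl2, Galnt12, Atoh1 and Bcas1). Muc2, the gel-forming mucin, had 573 CPM in Ex 1 and 35.7 CPM in Ex 2, against 2346 and 1386 CPM in NC. Zg16, a lectin that aggregates bacteria, had 3750 and 53.6 CPM in Ex, against 4534 and 9783 CPM in NC. The like sums of Ex 1 and PC 1 joined genes that differed in both directions. Muc2 (573 against 2939 CPM), Agr2 (1193 against 2241) and Spdef (5.11 against 34.2) were lower in Ex 1. Tff3 (3626 against 1040) and Clca1 (3098 against 2186) were higher there. As a percentage of the goblet cell sum, a measure added after the data were seen, Retnlb was 2.20 and 2% in ExDSS, 7.45 and 0.739% in PC, 0.0427 and 4.57% in Ex, and 11.1 and 2.63% in NC. The share was thus low in Ex 1 and not in Ex 2, where it rests on 7 counts of Retnlb.

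Retnla was low in NC and differed widely between the ExDSS libraries. ExDSS 1 and ExDSS 2 had 11.4 and 77.7 CPM, PC 1 and PC 2 had 39.8 and 52.5 CPM, Ex 1 had 63.2 CPM and Ex 2 no count, and NC 1 and NC 2 had 5.83 and 5.62 CPM. At the depth of Ex 2, no count allows up to 4.47 CPM. Both PC libraries lay above both NC libraries, and the 2 libraries of ExDSS, like those of Ex, lay far apart. Means were 44.6 ± 46.9 CPM in ExDSS, 46.2 ± 8.94 in PC, 31.6 ± 44.7 in Ex and 5.73 ± 0.15 in NC (SD, n = 2 each). In the order PC, ExDSS, Ex, NC, each neighbouring pair overlapped.

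Macrophage transcripts and Retnla had different orders across the libraries. The 10 macrophage markers summed to 2341 and 3248 CPM in ExDSS, 281 and 388 in PC, 343 and 14.9 in Ex, and 1058 and 2506 in NC. NC thus had the lowest Retnla among libraries with a count, beside macrophage sums above those of PC. In NC 2 most of the sum came from C1qa (1332 CPM) and C1qb (907 CPM). Adgre1, Csf1r and Cd68 were also higher in both NC libraries than in both PC libraries. Other markers were not: Lyz2 had 116 and 6.67 CPM in NC and 46.5 and 76.3 in PC, and Cd14 had 108 and 3.05 in NC and 23.8 and 30.0 in PC. The 14 listed genes of interleukin-4 activated macrophages summed to 450 and 597 CPM in ExDSS, 100.4 and 139 in PC, 149 and 17.9 in Ex, and 322 and 319 in NC. This order, with both NC libraries above both PC libraries, was also that of Fn1, which encodes fibronectin and had 181 and 326 CPM in ExDSS, 51.1 and 82.5 in PC, 84.8 and 17.9 in Ex, and 145 and 144 in NC. Chil3, a chitinase-like protein, had 139 and 52.8 CPM in ExDSS, 0 and 0.471 in PC, 0.102 and 0 in Ex, and 63.1 and 86.0 in NC. Fn1 and Chil3, which is also listed for neutrophil precursors, made up most of the sum in both ExDSS libraries. Arg1 had 0 and 0.670 CPM in ExDSS, 2.47 and 0.785 in PC, 1.02 and 0 in Ex, and 13.5 and 2.95 in NC. Arg1 was thus lower in ExDSS than in NC, unlike the sum. Chil4, Pdcd1lg2, Cd209e and Egr2 were at 0 in both ExDSS libraries. Mgl2, a lectin named after its values were seen, was low in NC as Retnla was, with 14.0 and 12.0 CPM in ExDSS, 11.5 and 15.4 in PC, 15.01 and 0 in Ex, and 3.98 and 0.953 in NC. Mrc1, the mannose receptor, had 21.4 and 34.7 CPM in ExDSS, 21.4 and 27.6 in PC, 28.5 and 0 in Ex, and 30.0 and 3.14 in NC. Cd163, a scavenger receptor, had 60.8 and 100.1 CPM in ExDSS, 3.78 and 3.53 in PC, 7.97 and 0 in Ex, and 20.6 and 53.4 in NC.

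Fat cell transcripts were most abundant in libraries with much Retnla. The 9 fat cell markers other than Retn summed to 217 and 2099 CPM in ExDSS, 451 and 510 in PC, 1547 and 10.4 in Ex, and 350 and 59.8 in NC. The 3 libraries with the highest sums, ExDSS 2, Ex 1 and PC 2, were also the 3 with the highest Retnla. NC 1 departed from this, with a fat cell sum above that of ExDSS 1 and less Retnla. Adipoq, which encodes adiponectin, had 34.7 and 88.0 CPM in ExDSS, 26.3 and 39.2 in PC, 169.5 and 0 in Ex, and 23.9 and 3.05 in NC. Retn had 18.7 and 404.5 CPM in ExDSS, 20.6 and 17.4 in PC, 109.9 and 0 in Ex, and 2.65 and 6.39 in NC. Retn and Retnla were thus both low in NC and both far higher in ExDSS 2 than in ExDSS 1. Their log2 CPM had a Pearson r of 0.926 over the 8 libraries and of 0.836 without Ex 2, given as a description. The fat cell genes Plin1, Lep and Pparg were at 0 in ExDSS 1, ExDSS 2, NC 2 and Ex 2. The part of attached fat in the Retnla levels was not tested. In bulk tissue, fewer cells of a type and less RNA per cell cannot be told apart, for this and the other genes.

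Retnlg separated the groups most cleanly. ExDSS 1 and ExDSS 2 had 298 and 233 CPM, PC 1 and PC 2 had 7.42 and 6.36 CPM, Ex 1 had 2.25 CPM and Ex 2 no count, and NC 1 and NC 2 had 323 and 202 CPM. The ExDSS and NC libraries overlapped each other and lay above all PC and Ex libraries. Means were 265 ± 45.9 CPM in ExDSS, 6.89 ± 0.75 in PC, 1.12 ± 1.59 in Ex and 262 ± 85.6 in NC (SD, n = 2 each). ExDSS and NC differed by less than their spread. Ex 2, where no count allows up to 4.47 CPM, could not be placed against Ex 1 at its depth.

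Mature neutrophil transcripts were high in the same 4 libraries as Retnlg. Its 24 measured genes summed to 3996 and 2506 CPM in ExDSS, 66.8 and 50.3 in PC, 50.1 and 16.4 in Ex, and 3139 and 2698 in NC. As a percentage of that sum, again a measure added after the data were seen, Retnlg was 7.45 and 9.30% in ExDSS, 11.1 and 12.6% in PC, 4.48 and 0% in Ex, and 10.3 and 7.48% in NC. The share was lowest in Ex 1 and highest in PC 2 among libraries with a count. Some genes of neutrophil precursors were not detected. Elane, Mpo and Ctsg, which encode enzymes stored in the granules of immature cells, had no count in any library. Of the mature list, 7 genes were at 0 in Ex 1 and 5 and 6 in PC 1 and PC 2, among them Stfa2l1, a stefin. Libraries with high sums lacked some as well: 2 were at 0 in ExDSS 1, 3 in ExDSS 2 and 4 in NC 2, against 0 in NC 1. Csf3r was at 0 in both ExDSS libraries, and Cd177 in ExDSS 2. The sum of eosinophil markers was also higher in the ExDSS and NC libraries: the 8 genes summed to 36.3 and 94.6 CPM in ExDSS, 6.76 and 4.63 in PC, 3.68 and 0 in Ex, and 51.2 and 32.9 in NC. Siglecf, Ccr3 and Il5ra had this order. Prg2 did not, with 0 and 0 CPM in ExDSS, 1.60 and 1.10 in PC, 0.715 and 0 in Ex, and 3.25 and 7.81 in NC. Epx, the eosinophil peroxidase, was at 0 in all 8 libraries, and 5 of the genes were at 0 in ExDSS 1 and 4 in NC 2. The part of neutrophil or eosinophil content in the Retnlg levels was not tested, nor was that of gut position.

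**Figure D2:**
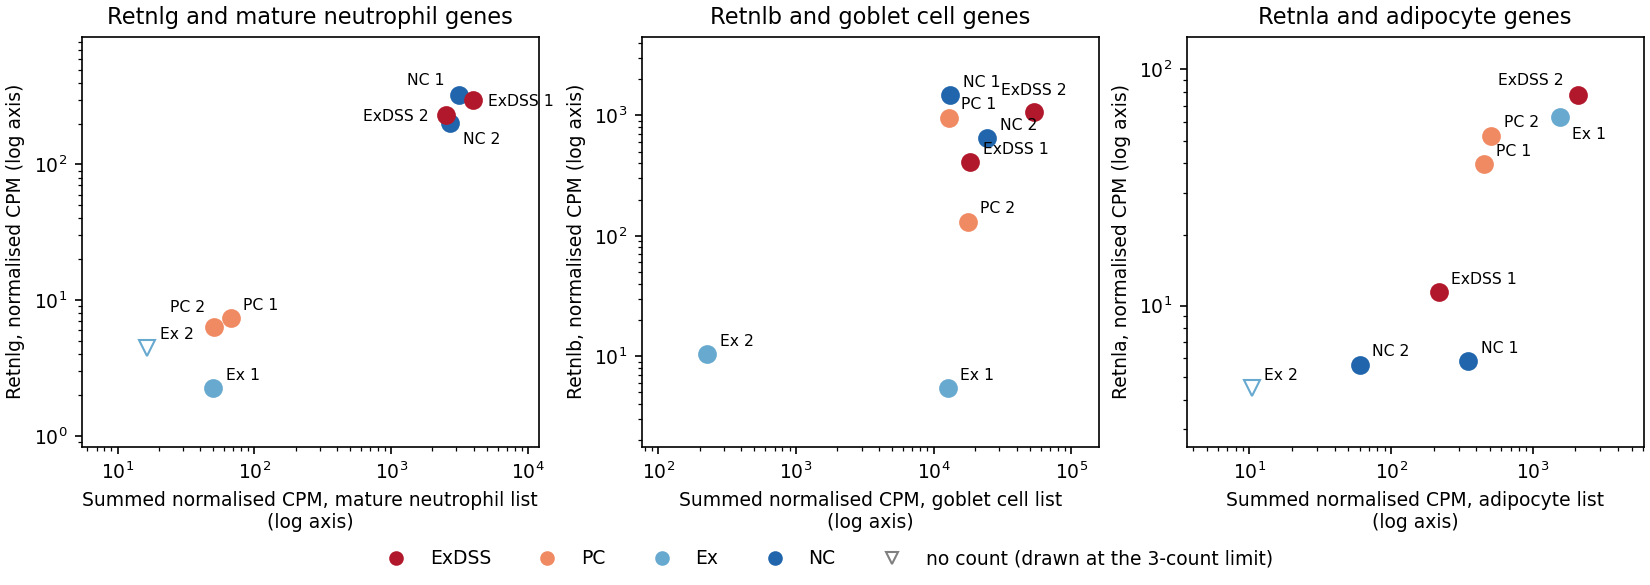
Normalised CPM of Retnlg, Retnlb and Retnla (vertical, log axis) against the summed normalised CPM of a marker list in the same library (horizontal, log axis), 1 point per library, coloured by group as labelled; open triangles had no count of the gene. Retnlg is high where the mature neutrophil sum is high, Ex 1 has little Retnlb at a goblet cell sum like that of PC 1, and the libraries with most Retnla are those with most fat cell transcripts, with NC 1 below the others at a like sum.

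The comparisons between groups set these levels side by side as log2 fold changes from edgeR's quasi-likelihood fit. In each of the 4 comparisons edgeR called 0 of the 3 members at an adjusted p under 0.05, beside 0% of all 14567 genes. Of the 14567 genes, 363 had an unadjusted p under 0.05 for PC against NC and 2763 for ExDSS against PC. There were 774 for Ex against NC and 2881 for ExDSS against Ex. Such counts include genes that fall under 0.05 by chance, and none of these genes passed adjustment. DESeq2 called 83, 1488, 337 and 2005 genes in the same order. Over all genes tested the log2 fold changes had medians of 0.10, -0.51, -0.27 and -0.29. PC and NC each enter 2 of these comparisons, as do Ex and ExDSS, so the comparisons are not independent.

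For DSS without exosomes, Retnla and Retnlg separated the groups in opposite directions. Retnla had a log2 fold change of 3.01 (SE 1.72) in PC against NC, with both PC libraries higher, as for 31% of genes tested. Retnlg had -5.25 (SE 1.49), with both PC libraries lower, as for 23.6% of genes. Retnlb had -0.95 (SE 1.42), with overlapping groups. The Retnlb value varied with the library left out: it was -2.97 without PC 1, -0.11 without PC 2 and -0.23 without NC 1.

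For exosomes before DSS, only Retnlg separated the groups. Its log2 fold change in ExDSS against PC was 5.27 (SE 1.49), with both ExDSS libraries higher, as for 18.9% of genes, while 45.4% of genes had both lower and no member did. Retnlb had 0.44 (SE 1.41) and Retnla -0.05 (SE 1.59), both with overlapping groups. Their signs turned with 1 library: Retnlb had -0.43 without ExDSS 2 and -0.33 without PC 2, against 2.54 without PC 1. Retnla had -2.03 without ExDSS 2, 0.74 without ExDSS 1 and 0.20 without PC 2.

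For exosomes without DSS, Retnlb and Retnlg were both lower in Ex than in NC, as were 22.9% of genes in both libraries. Retnlb had a log2 fold change of -7.10 (SE 1.85) and Retnlg -7.41 (SE 1.68). Retnla had 2.49 (SE 1.69) with overlapping groups. Its value was 3.50 without Ex 2, while without Ex 1 its value of -8.85 stands against a library with no count and depends on the fit. The fitted Retnlg value without Ex 2 was -6.83.

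For DSS after exosomes, the same pair was higher in ExDSS than in Ex, as were 17% of genes in both libraries. Retnlb had a log2 fold change of 6.59 (SE 1.81) and Retnlg 7.43 (SE 1.68). Retnla had 0.46 (SE 1.60) with overlapping groups, and its sign turned without ExDSS 2 (-1.52) or Ex 2 (-0.50).

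The interaction asks whether the DSS difference depended on the exosomes, as (ExDSS against Ex) minus (PC against NC). edgeR called 42 of 14567 genes there (0.288%), of which 38 were positive, with a median of -0.58 over all genes. Of the 3 members it called 1, Retnlg, with an interaction of 12.68 on the log2 scale (SE 2.25). Retnlb had 7.54 (SE 2.24) and Retnla -2.54 (SE 2.29). The Retnlg value is the ExDSS against Ex difference of 7.43 less the PC against NC difference of -5.25. Its size thus rests in part on PC lying below NC, the labels that the neutrophil genes go against, and with those labels exchanged the 2 parts would largely offset each other. It was lost without NC 1, NC 2, PC 1, PC 2, ExDSS 1 or ExDSS 2, with fitted values between 12.43 and 13.0, and with total counts in place of TMM scaling (12.38). Without Ex 2 the call stood, at 12.11.

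**Figure D3:**
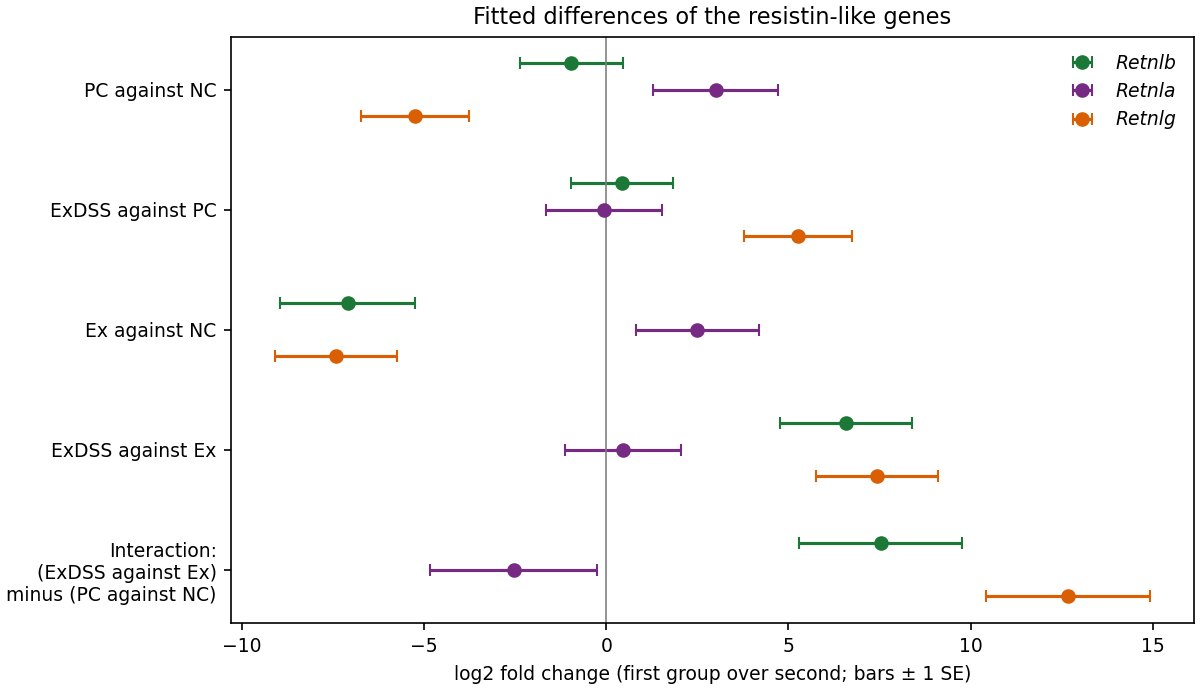
Log2 fold changes (points) with ± 1 SE (bars) of Retnlb, Retnla and Retnlg in the 4 comparisons and the interaction, from the fit over all 8 libraries, with the group named first over the second. Retnlg has the largest absolute value of the 3 genes in each row, the signs of Retnla and Retnlg are opposite in 4 of the 5 rows, and Retnlb lies near 0 where DSS alone or exosomes before DSS were compared.

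Genes of the pathways around the family were read from 17 lists with 178 distinct genes beside the members, of which 176 were in the table and 152 were tested. None was called in the 4 comparisons between groups. In the interaction 9 were called, all positive. They were the neutrophil genes S100a8, S100a9, Stfa2l1, Hdc, Wfdc21, Il1b, Mmp8, Chil3 and Lcn2, of which Chil3 is also listed for activated macrophages and Lcn2, which binds bacterial siderophores, for epithelial defence. S100a8 had an interaction of 20.75 (SE 2.83, edgeR adjusted p = 0.00414) and Lcn2 12.02 (SE 2.14, edgeR adjusted p = 0.0151). These values too join a positive difference in ExDSS against Ex to a negative one in PC against NC, 10.01 and -10.75 for S100a8 and 5.45 and -6.57 for Lcn2. The parts are of like size, so the positive sum depends on the labels PC and NC being right. The mature neutrophil list had a median of 10.5, with 7 of 22 tested genes called, and the neutrophil precursor list a median of 12, with 2 of 7 called, against -0.58 over all genes. Without NC 1, NC 2 or PC 1, 0 list genes were called, and without Ex 2, 4 were. With DESeq2, 60 were.

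The type 2 cytokine list held 7 genes, most of them at low levels. Il13, Il5 and Il9 had no count in any library, and Il4 and Il25 reached at most 0.218 CPM. Tslp, an epithelial cytokine, was detected in 6 libraries and had 0.137 and 4.69 CPM in ExDSS, 2.54 and 1.96 in PC, 3.27 and 0 in Ex, and 2.52 and 0 in NC. Il33, an alarm signal of injured tissue, had 62.7 and 94.8 CPM in ExDSS, 4.80 and 6.90 in PC, 13.1 and 0 in Ex, and 67.03 and 39.3 in NC. Its level was thus high in the libraries with high Retnlg, and low in the PC libraries and Ex 1, which had more Retnla than NC. ExDSS 2 had the most Il33 and also the most Retnla (77.7 CPM) of the 8 libraries.

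Of the 10 type 2 receptor, kinase and Stat6 genes, 6 were at 0 in Ex 2, 2 in NC 2 and 1 in ExDSS 1. Il4ra, the chain that both interleukin-4 and interleukin-13 use, had 125 and 181 CPM in ExDSS, 26.0 and 28.2 in PC, 16.6 and 4.47 in Ex, and 111 and 102 in NC. Stat6 had 104 and 73.4 CPM in ExDSS, 29.4 and 24.5 in PC, 23.3 and 107 in Ex, and 25.4 and 58.0 in NC. This list had 0 of 10 genes called in the interaction, with a median of 3.74 and 9 of 10 values positive. Among reported binding partners of resistin and RELM proteins, Cap1, an actin-binding protein described as a receptor of human resistin, had 122 and 187 CPM in ExDSS, 56.5 and 56.5 in PC, 62.4 and 843 in Ex, and 148 and 54.3 in NC. Tlr4, the receptor for bacterial lipopolysaccharide, had 35.9 and 25.0 CPM in ExDSS, 11.8 and 16.3 in PC, 9.70 and 0 in Ex, and 38.3 and 22.5 in NC.

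Epithelial factors and position markers varied beside Retnlb. The goblet cell list had 0 of 13 genes called in the interaction (median 1.39), the epithelial transcription factors 0 of 7 (median -1.04) and the colon list 0 of 10 (median -5.59, all 10 values negative). The colon list summed to 1114 and 4356 CPM in ExDSS, 9776 and 12980 in PC, 13567 and 192 in Ex, and 1334 and 2703 in NC. Klf4, an epithelial differentiation factor, had 143 and 70.6 CPM in ExDSS, 676 and 551 in PC, 554 and 2.98 in Ex, and 287 and 77.7 in NC. PC 1, PC 2 and Ex 1 had alike values of both, while their Retnlb was 959, 131 and 5.41 CPM. Retnlg was low in PC 1, PC 2 and Ex 1, and high in the ExDSS and NC libraries, where the colon sum was lower. The part of gut position in the levels of Retnlb, Retnla and Retnlg was not tested.

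Levels of the neighbouring genes were mixed. Within 500 kb on each side the table lists 7 other genes. Trat1, next to Retnlb, had no count in 7 libraries and 0.0785 CPM in PC 2. Dzip3, the next gene past Retnlg, had 0 and 0.0837 CPM in ExDSS, 7.20 and 9.89 in PC, 9.50 and 4.47 in Ex, and 7.89 and 4.38 in NC. Gm5485 had 74.7 and 69.0 CPM in ExDSS, 335 and 564 in PC, 703 and 0 in Ex, and 206 and 218 in NC. Like Retnla it was higher in both PC libraries than in NC, highest or second highest in Ex 1 and at 0 in Ex 2, and unlike Retnla it was lower in ExDSS 2 than in NC. C330027C09Rik had 0.137 and 9.04 CPM in ExDSS, 24.6 and 17.0 in PC, 25.1 and 89.3 in Ex, and 12.9 and 0 in NC. Morc1 reached at most 0.314 CPM, and Dppa2 and Myh15 had no count.

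The genes most like each member were taken by Pearson r of log2 CPM over the 8 libraries, among 10036 genes averaging at least 5 CPM. For Retnlg these were Gbp5, an interferon-induced GTPase, Rsad2, an antiviral protein, Nfil3, a transcription factor, Ccr3, a chemokine receptor of eosinophils, and Ccl8, a chemokine, with r between 0.988 and 0.993. Gbp5 had 152 and 75.2 CPM in ExDSS, 2.98 and 3.06 in PC, 2.55 and 0 in Ex, and 145 and 73.6 in NC. For Retnlb they were Sptssb, Spag7, Nrep, Ddah1 and Plet1, with r between 0.9005 and 0.943. Sptssb, a subunit of the enzyme that starts sphingolipid synthesis, had 20.8 and 15.7 CPM in ExDSS, 76.6 and 16.2 in PC, 0.715 and 1.49 in Ex, and 114 and 61.6 in NC. For Retnla they were Cdo1, Nmu, Lyrm5, Gpx1 and Nedd8, with r between 0.967 and 0.975, and 235 genes had an r over 0.9 with it, against 376 for Retnlg and 5 for Retnlb. Cdo1, which breaks down cysteine, had 51.7 and 100.9 CPM in ExDSS, 85.1 and 85.6 in PC, 143 and 1.49 in Ex, and 23.5 and 41.6 in NC. The libraries share the depth and missing transcripts of Ex 2, where Retnla and Retnlg were at 0. Over the 7 libraries without it, none of the 5 genes nearest to Retnla or to Retnlg was in the first set, while Ddah1, Plet1 and Sptssb stayed among the 5 nearest to Retnlb.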

How the data were processed

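The authors deposited whole-number counts per gene, 1 column for each of the 8 libraries. Per the labels' protocols, libraries were made from Trizol RNA with a QuantSeq 3′ kit. The submitters' processing notes name Bowtie2, bedtools, edgeR and mm9, without versions. Of 21982 table genes matched to RefSeq GRCm38.p6 by name and chromosome, 21909 (99.67%) overlapped, so positions are given as GRCm38. No source used here says whether counting used strand.

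The deposited counts were fitted with edgeR 4.0.16 (R 4.3.3): TMM scaling, filterByExpr (minimum count 10, total 15), 1 coefficient per group, robust quasi-likelihood F test, 4 residual degrees of freedom. Adjusted p-values are Benjamini-Hochberg over 14567 genes, with calls under 0.05. SE is the absolute log2 fold change over the square root of F. Normalised CPM are counts per library total and TMM factor. Levels allowed by a count of 0 correspond to 3 counts and cover counting error only. Every pair of libraries differed beyond sampling noise. Likeness used log2 CPM with a prior count of 2. Sequences were compared with Biopython 1.88. The fit was tested on simulated counts. Alternatives were DESeq2 1.42.0, other scalings, no filter, a replicate block and libraries left out.

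Members and lists were chosen with earlier results of these data known. Named genes are the members, Retn, the 5 genes most like each member, list genes called, defining markers at 0 and, from lists described, some of up to 4 genes with the highest mean. Genes outside this rule were named after their values were seen.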

Additional observations from a re-analysis of the deposited data

Results flagged for a closer look

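Retnlg is listed because every PC library lay below every NC library while every ExDSS library lay above every Ex library. Of all genes tested, 23.6% met the first condition and 17% the second, and the share that met both was not counted. The Retnlg interaction was 12.68 on the log2 scale, and edgeR's test over all genes called it, which is no independent support since the same levels chose the gene. For 9 list genes the interaction also passed edgeR's quasi-likelihood test. Their lists were chosen with earlier results of these data known, so these calls are no independent support either. As for Retnlg, the values of S100a8, S100a9, Chil3, Hdc, Lcn2 and Stfa2l1 rest in part on PC lying below NC. These are the labels that the neutrophil genes go against. The parts were not set out for Mmp8, Il1b and Wfdc21. The log2 values were 20.75 for S100a8, 19.07 for S100a9, 19.82 for Mmp8, 18.10 for Chil3, 15.38 for Il1b, 14.02 for Hdc, 12.77 for Wfdc21 and 12.02 for Lcn2. Stfa2l1 had a fitted value of 21.26, which depends on the prior count because it had no count in any PC or Ex library. Groups of 2 libraries are too small to look for single libraries far from the rest.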

How the results depend on the processing

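Over 7 alternatives other than leaving out 1 library, 99 of 105 member fold changes moved by less than the spread within groups. The others, none of which changed sign, were Retnla in PC against NC with total counts (3.24), Retnlg in ExDSS against PC with total counts (4.76) and without NC 2, Ex 2 and ExDSS 1 together (5.04), and Retnlb without these 3 libraries in Ex against NC (-8.08), ExDSS against Ex (7.59) and the interaction (9.01). Among the 99, Retnla in ExDSS against PC (-0.05) turned sign with RLE scaling (0.05), with DESeq2 (0.05) and without the 3 libraries (0.72). The spread of Retnla was wide in Ex against NC (4.17) and ExDSS against Ex (4.39), since Ex 2 had no count, so a small move there says little. Counts of calls depended far more on the setting. For PC against NC (0 calls) they were 45 without a filter, 83 with DESeq2 and 3910 without the 3 libraries. For ExDSS against PC (0 calls) they were 132, 1488 and 10719, and for Ex against NC (0 calls) 55, 337 and 3603. For ExDSS against Ex (0 calls) they were 223, 2005 and 9839, and for the interaction (42 calls) 350, 1616 and 9646. Without the 3 libraries only PC keeps a pair, which sets the whole estimate of spread. RLE scaling gave 67 interaction calls, total counts 6, and removing Rn45s 42. Deviations of same-numbered libraries from their group means had correlations between -0.149 and 0.0506. With 2 libraries per group, and Ex 2, NC 2 and ExDSS 1 standing apart, these cannot show whether replicate numbers pair the libraries. With the replicate block calls numbered 41 for ExDSS against PC, 28 for ExDSS against Ex and 161 for the interaction. DESeq2 called Retnlg in all 4 comparisons and the interaction, and Retnlb in Ex against NC, ExDSS against Ex and the interaction. Beside them it called 83, 1488, 337, 2005 and 1616 of 14567 genes, in the order of the comparisons and then the interaction. Without a filter edgeR called Retnlb and Retnlg in Ex against NC, ExDSS against Ex and the interaction, where it called 55, 223 and 350 genes. The interaction call of Retnlg held in 8 of 15 alternatives.

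Leaving out each library in turn gave between 0 and 4 calls for PC against NC, 0 and 6 for ExDSS against PC, 0 and 1596 for Ex against NC, 0 and 1883 for ExDSS against Ex, and 0 and 1663 for the interaction. The 3 highest came without Ex 1, and 0 interaction calls came without NC 1 or NC 2. Where 1 library was left in a group, it was assumed to vary like the others. Retnlb ranged from -2.97 to -0.11 in PC against NC, -0.43 to 2.54 in ExDSS against PC, -7.61 to -6.50 in Ex against NC, 5.75 to 7.14 in ExDSS against Ex and 6.70 to 9.73 in the interaction. Retnla ranged from 2.82 to 3.23, -2.03 to 0.74, -8.85 to 3.50, -1.52 to 11.84 and -4.54 to 8.78 in the same order, turning sign without Ex 1 in Ex against NC (-8.85) and the interaction (8.78). Retnlg ranged from -5.54 to -4.86, 5.06 to 5.45, -14.36 to -6.83, 6.92 to 14.45 and 12.11 to 19.64. The values of Ex without Ex 1 rest on Ex 2 alone, whose low depth limits levels under 4.47 CPM. The cause of the other differences was not tested.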

Other observations

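The 16 genes of bacteria-induced epithelial defence summed to 23219 and 31179 CPM in ExDSS, 12255 and 13189 in PC, 18497 and 207 in Ex, and 21211 and 24068 in NC, so PC 1 and PC 2 were alike in the sum. Among its abundant genes Lypd8, which binds bacterial flagella, had 3845 and 4696 CPM in PC, and Sprr2a2, a small proline-rich protein, had 3981 and 3507. Single genes of the list differed between the PC libraries. Reg3b, a secreted antibacterial lectin, had 8810 and 86.8 CPM in ExDSS, 713 and 2.75 in PC, 7.05 and 13.4 in Ex, and 6649 and 5483 in NC. Reg3g, its relative, named after its values were seen, had 1701 and 6.36 CPM in ExDSS, 223 and 1.57 in PC, 2.14 and 7.44 in Ex, and 3105 and 1885 in NC. PC 1 was thus above PC 2 for both and for Retnlb, and ExDSS 1 was above ExDSS 2 for both lectins but below it for Retnlb. Ang4, a goblet and Paneth cell ribonuclease, also named after its values were seen, had 33.2 and 600 CPM in ExDSS, 399 and 648 in PC, 9.39 and 11.9 in Ex, and 41.5 and 26.2 in NC. Ex 1 was low for Ang4 and for Retnlb beside a goblet cell sum of 12683 CPM. This list had 1 of 14 genes called in the interaction, Lcn2, and 0 in the 4 comparisons between groups.

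In the interaction, edgeR called 0 of 6 tested eosinophil genes. The small intestine list had 0 of 7 tested genes called there, the adipocyte list 0 of 10, the macrophage list 0 of 9, the epithelium list 0 of 9 and the pancreatic acinar list 0 of 14.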
